A study of Mus musculus with 8 samples.

Results

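The genes described here encode the proteasome, the ubiquitin-conjugating enzymes (E2s) and the ubiquitin-specific proteases: 103 of the 10060 genes in the deposited counts, chosen by name as symbols that begin with Psm, a letter from a to g and a number, with Ube2, or with Usp and a number. They comprise 37 Psm, 25 Ube2 and 41 Usp genes. The name rule uses no measured value, but these genes were chosen with earlier results of these data known. Ubiquitin is activated by an E1 enzyme, passed to an E2 and joined to a substrate with the help of an E3 ligase, and chains of it mark proteins for the 26S proteasome. The 20S core of the proteasome is a barrel of alpha and beta rings in which the beta subunits cut the substrate, while the 19S cap recognises, unfolds and feeds it in through a ring of ATPases. Deubiquitinases such as the USP family remove ubiquitin, and in neurons this system takes part in synapse turnover and protein quality control.

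Total brain was taken at postnatal day 50 from 3 wild-type and 5 Cstf2D50A mice on a C57BL/6NCrl background, kept as littermates of a line backcrossed for 4 generations and then bred within the colony. The mutation replaces aspartate with alanine at residue 50 of CSTF2, an RNA-binding part of the machinery that cleaves pre-mRNA ahead of polyadenylation, so the question was whether the mutants differ in the poly(A) sites and in the levels of these genes. Reads of the QuantSeq REV libraries start at the transcript's 3′ end. For each gene the authors' first table gives the counts at 2 poly(A) sites of the 3′-most exon (the last exon below), 1 proximal and 1 distal, and their second the counts ending in an upstream exon and in the last exon.

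Of the genes described here, 83 are in the first table (24 Psm, 23 Ube2, 36 Usp) and 63 in the second (22, 10 and 31), with 43 in both, and all of these pairs passed the filter on low counts (a mean of 20 reads per library and 10 reads in all at each site). The first table held 9.62 to 17.5 M reads (M, 1000000) per library and the second 7.08 to 13.1 M, of which these genes took 1.17% to 1.30% and 1.29% to 1.43%. For all 43 the second table's last-exon count was never below the first table's summed pair in any library, so the tables share reads and are not independent measurements of level. Psmc3ip, a recombination factor, and Usp6nl, a GTPase-activating protein for Rab proteins, match by prefix without being a proteasome subunit or a protease. Libraries are named wild type 1 to 3 and mutant 1 to 5, numbers that carry no order, and the p-values below measure only the spread between these animals.

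Markers of neurons (8 of 10 listed in the first table), oligodendrocytes (8 of 11) and astrocytes (5 of 9) were measured, and none of those in the table was at 0 in all libraries. The libraries differed in cerebellar markers: 11 of 16 cerebellar granule cell markers summed to 2411 to 3193 CPM (counts per 1000000 reads of the library) in wild type, 679 to 809 in mutants 1 to 4 and 2551 in mutant 5, and 6 of 10 Purkinje cell markers to 1289 to 1621, 549 to 587 and 1348. The 5 astrocyte markers summed to 5135 to 5853 CPM in wild type and 4464 to 4972 in the mutants, mutant 5 included. In the second table, which holds 4 of the 9, they summed to 3888 to 5051 and 2944 to 3804. The genotypes overlapped in neither table. Striatal markers (6 of 9) summed to 383 to 516 CPM in wild type, 572 to 649 in mutants 1 to 4 and 424 in mutant 5 in the first table. In the second, which holds 2 of the 9, the genotypes overlapped (120 to 140 and 111 to 143). Neuron markers overlapped, with 4817 to 6142 CPM in wild type and 5349 to 7407 in mutants. In both tables their sums in mutants 1, 2 and 4 lay above all wild types, and wild type 3 lay above mutants 3 and 5. Endothelium and pericyte markers (4 of 9) had the same order in the first table, with 260 to 452 CPM in wild type and 296 to 622 in mutants. In the second (3 of 9) mutant 2 lay just below wild type 3 (251 and 252). Cortex and hippocampus markers (10 of 12) had the order of the neuron markers in the first table, with 468 to 826 CPM in wild type and 690 to 985 in mutants. In the second (4 of 12) they did not, as mutant 2 lay below wild type 2 (359 and 371). Oligodendrocyte markers overlapped too, with 4178 to 5265 and 3595 to 4482. In whole tissue, fewer cells of a type and less RNA per cell cannot be told apart. The part of these differences in the results below was not tested.

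In wild-type brain the proteasome genes ended mostly at the proximal site and the USP genes mostly at the distal one. The median distal share, the percentage of a gene's reads in the pair that fall on the distal site, was 20.7% for the 24 Psm genes, 64.1% for the 23 Ube2 genes and 74.5% for the 36 Usp genes, beside 52.0% for all 7876 pairs. A distal share under 10% was found in 11 Psm genes (45.8% of them), 3 Ube2 genes and 3 Usp genes, beside 18.1% of all pairs, and a share above 90% in 2, 3 and 12 (33.3% of the Usp genes), beside 19% of all pairs. The sites of a pair lay a median of 486 bases apart in Psm genes, 727 in Ube2 genes and 724 in Usp genes (626 in all pairs), from 25 bases in Ube2j1, an E2 of the endoplasmic reticulum, to 6729 in Usp15, a protease known from TGF-beta signalling.

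**Figure D1:**
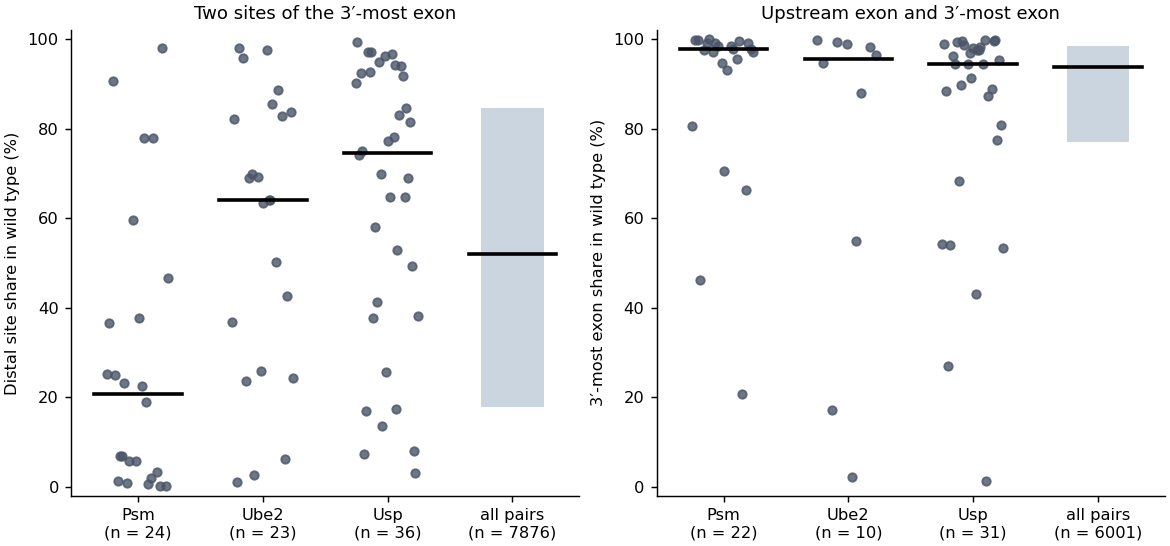
Wild-type means of the distal site share (left) and of the last-exon share (right) in percent, 1 point per gene, for Psm, Ube2 and Usp genes, with bars at the class medians; the grey box spans the quartiles of all pairs and its bar is their median. The Psm points crowd below 10% on the left, whereas most Usp points lie above 50%, and on the right most genes of every class lie near 100%.

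Within the proteasome the ATPases of the 19S cap were the most proximal, with a median wild-type distal share of 1.29% over 4 genes (Psmc1, Psmc4, Psmc5 and Psmc6). The beta ring of the 20S core followed at 6.27% over 4 genes, although its trypsin-like subunit Psmb7 ended at the distal site in 90.7% ± 2.42 (SD, n = 3) of its reads, 32 bases beyond the proximal one. The alpha ring (Psma2 and Psma3) had a median of 22%, the assembly chaperones 23.1% over 5 genes, the 19S subunits that are not ATPases 37.1% over 6 and the activators with the inhibitor Psmf1 46.7% over 3. Among these, Psmb4, a beta subunit with no catalytic site of its own, had the lowest distal share of all 83 genes, 0.0866%, and the 19S lid subunit Psmd7 the highest of the proteasome genes, 98.0%.

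E2s were spread widely. Ube2d2a and Ube2e3, listed together as broadly acting ubiquitin E2s, had distal shares of 6.23% and 1.11%. Ube2v1, a partner of the lysine 63 chain enzyme UBE2N, had 2.5%, whereas Ube2n itself had 85.5%. Ube2ql1 lay at 98.0%. Of the USP genes, the 3 whose proteins are partners of UAF1 (Usp1, Usp12 and Usp46) had a median of 90.2%. The group of Usp5, Usp13 and Usp14 had a median of 64.8%, and the lowest share was that of Usp20, 3.01%.

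Reads in an upstream exon were a small part for most genes: the median last-exon share was 97.7% for Psm, 95.6% for Ube2 and 94.4% for Usp genes, beside 93.8% for all 6001 pairs. A few genes ended largely upstream. Usp19, known as membrane-anchored and soluble forms that differ at the carboxyl end, had a last-exon share of 1.24%, Ube2w, an E2 that modifies protein amino termini, 2.08%, Ube2e3 17.2%, and Psmd1, a scaffold of the 19S base, 20.7%. Usp16, a histone H2A protease, had 27.0%, Usp8, which acts on endosomes, 43.0% and the assembly chaperone Psmd9 46.3%.

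The first comparison asked whether the mutants used the distal site of the last exon more or less. No gene of the 3 classes passed the test: edgeR's quasi-likelihood test called 0 of 83 at adjusted p under 0.05, as it did of all 7876 pairs (0%), and DESeq2 called 0 of 83, beside 0.267% of all pairs, and limma 0 of 83. At unadjusted p under 0.05 edgeR listed 15 of 83 genes (12.7% of all pairs), 12 of them toward the distal site (8.57%) and 3 toward the proximal site (4.16%). The genotypes did not overlap in 6 genes (4.15% of all pairs), 5 toward the distal site (2.53%) and 1 toward the proximal site (1.63%). Leaving out 1 wild type moved the 15 to 6 (wild type 1), 1 (wild type 2) or 28 (wild type 3). Leaving out 1 mutant moved it to 6 (mutant 1), 5 (mutant 2), 9 (mutant 3), 11 (mutant 4) or 31 (mutant 5). The share of all pairs at that p moved with it, from 3.64% without wild type 2 to 27.5% without mutant 5.

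The median log2 change in the ratio of distal to proximal reads, mutant over wild type, was 0.41 in Psm, 0.26 in Ube2 and 0.19 in Usp genes, beside 0.12 over all pairs. It was above 0 in 18 of 24, 16 of 23 and 25 of 36 genes, beside 59.2% of all pairs. Without wild type 1 the Psm median was 0.22. The median log2 ratio of the 24 Psm genes in each library, relative to their wild-type means, was -0.14, -0.02 and 0.30 in wild type 1 to 3. In mutant 1 to 5 it was 0.63, 0.49, 0.40, 0.35 and 0.02. Mutant 5 lay within the wild-type range, and the other mutants lay above all wild types. All 4 beta ring genes lay above 0 (median 0.45), as did 3 of 4 19S ATPases (0.48), 5 of 6 other 19S subunits (0.74), 3 of 3 E2s of the UBE2D and UBE2E kind (0.52), 5 of 5 E2s of lysine 48 chains and endoplasmic reticulum quality control (0.39) and 3 of 3 partners of UAF1 (0.84). The assembly chaperones had a median of 0.27 (4 of 5 above 0) and the E2s of lysine 63 chains 0.08 (2 of 3). Also near the median of all pairs were E2s of other roles (0.03, 4 of 7) and USPs of endosome, endoplasmic reticulum or mitochondrion (0.11, 3 of 4). So were USPs of histones or the nucleus (0.14, 3 of 6) and the group of Usp5, Usp13 and Usp14 (0.18, 3 of 3). Medians below 0 were those of the alpha ring (-0.43 over Psma2 and Psma3), the activators with the inhibitor (-0.01, 1 of 3 above 0), the RAD6 pair of E2s (-0.03, 1 of 2) and the inactive or atypical USPs (-0.0034, 1 of 2).

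**Figure D2:**
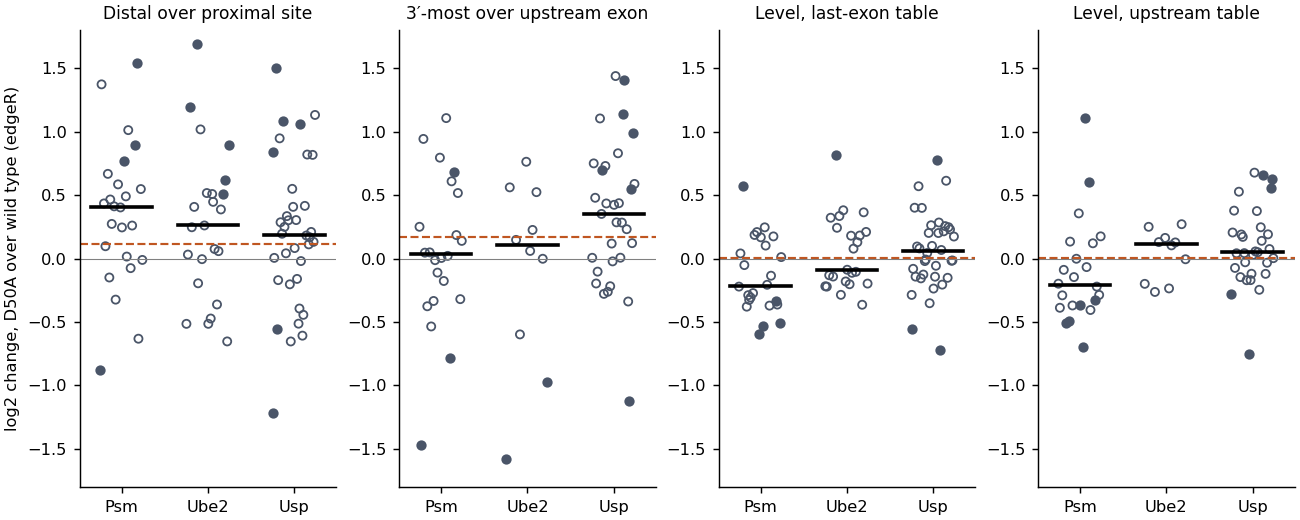
The log2 change of each gene, D50A over wild type, from edgeR, by class in the 4 comparisons: the ratio of distal to proximal reads, of last-exon to upstream reads, and the level in each table. Filled points have an unadjusted p under 0.05, bars are class medians and the dashed line is the median of all pairs; the Psm bar lies above that line on the far left (0.41 against 0.12) and below it in both level panels.

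Psmd11, a 19S lid subunit, was the proteasome gene in which the genotypes did not overlap. Its distal share was 3.81%, 1.98% and 4.2% in wild type 1 to 3 and 7.32%, 5.75%, 5.65%, 5.83% and 4.44% in mutant 1 to 5. All 5 mutants lay above the highest wild type, with mutant 5 closest to it. The means were 3.33% ± 1.18 (SD, n = 3) and 5.80% ± 1.02 (n = 5), a log2 change of 0.89 ± 0.28 (SE, edgeR adjusted p = 0.388).

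Psmc6, an ATPase of the 19S ring, had distal shares of 19.9%, 23.1% and 24.3% in wild type and 40.4%, 44.0%, 36.9%, 23.9% and 22.6% in mutants. Mutants 1 to 3 were above all wild types, and mutants 4 and 5 lay within their range. The log2 change was 0.77 ± 0.34 (SE, edgeR adjusted p = 0.388). Counted site by site, its proximal reads averaged 140 ± 38.9 CPM across wild types and 83.7 ± 27.0 across mutants, with distal reads at 39.6 ± 5.88 and 39.9 ± 5.77 CPM (SD, n = 3 and 5). The proximal site alone had a log2 change of -0.68 ± 0.24 (SE, edgeR adjusted p = 0.352) and the distal site -0.03 ± 0.17.

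Psma2, a subunit of the alpha ring that gates entry to the core, differed in the opposite direction, with distal shares of 27.4%, 26.4% and 21.5% in wild type and 12.8%, 11.5%, 10.5%, 22.5% and 23.3% in mutants. Here too mutants 1 to 3 stood apart, below all wild types, and mutants 4 and 5 lay between the wild types. The log2 change was -0.88 ± 0.34 (SE, edgeR adjusted p = 0.388). Its proximal reads averaged 318 ± 64.8 CPM over the wild types against 306 ± 33.4 over the mutants, and its distal reads 107 ± 31.9 and 58.9 ± 24.1 CPM (SD). For this gene the distal site had the larger log2 change, -0.91 ± 0.31 (SE, edgeR adjusted p = 0.381), beside 0.01 ± 0.17 at the proximal site.

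Other 19S subunits had wide shares within a genotype. Psmd14, the deubiquitinase of the 19S lid, had 27.4%, 26.7% and 55.3% in wild type and 71.7%, 69.7%, 52.8%, 65.6% and 30.0% in mutants (edgeR adjusted p = 0.392, log2 change 1.37 ± 0.62 SE). Wild type 3 lay among the mutants and mutant 5 next to wild types 1 and 2. Psmd12, of the 19S lid, had 59.5% ± 4.78 in wild type and 68.6% ± 5.77 in mutants (SD, log2 change 0.59 ± 0.27 SE, edgeR adjusted p = 0.393). The large log2 change of Psmb4, 1.54 ± 0.50 (SE, edgeR adjusted p = 0.388), rests on few reads, 1 to 28 per library at the distal site against 5651 or more at the proximal site.

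**Figure D3:**
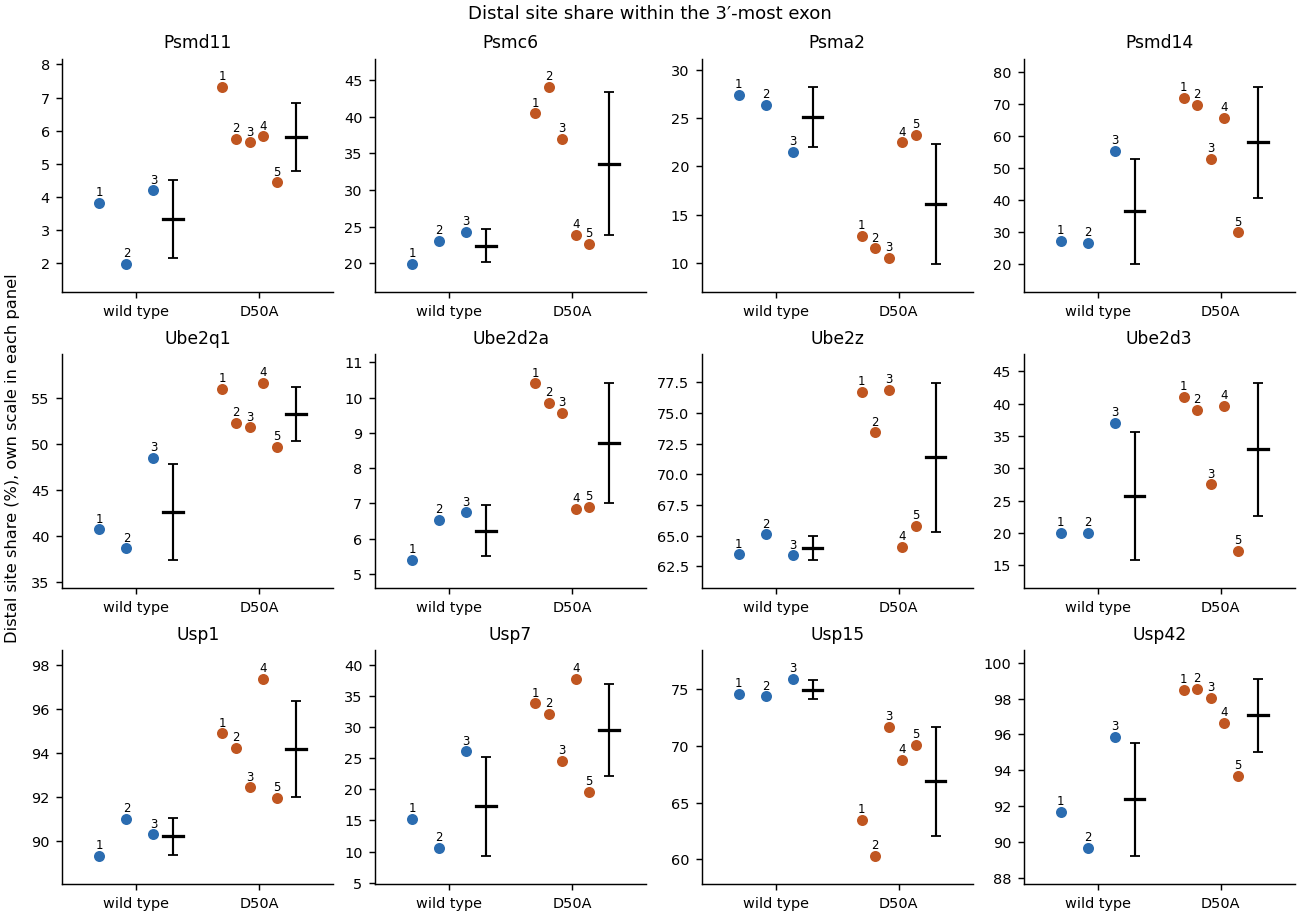
Distal site share in percent in every library for 12 genes, with library numbers beside the points and the mean ± SD of each genotype at the right of its points; each panel has its own scale, which does not start at 0. In Psmc6, Psma2, Ube2d2a and Ube2z mutants 4 and 5 lie in or next to the wild-type range, and in Psmd14, Ube2d3 and Usp7 wild type 3 lies among the mutants while mutant 5 lies among or below the wild types.

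Of the E2s, Ube2q1 had distal shares of 40.7%, 38.6% and 48.5% in wild type and 56.0%, 52.3%, 51.8%, 56.7% and 49.7% in mutants. The genotypes did not overlap, with wild type 3 and mutant 5 closest to each other. The means were 42.6% ± 5.22 and 53.3% ± 2.94 (SD), a log2 change of 0.62 ± 0.21 (SE, edgeR adjusted p = 0.388). Ube2d2a, a broadly acting E2, had 5.41%, 6.53% and 6.75% in wild type and 10.4%, 9.84%, 9.58%, 6.85% and 6.90% in mutants. Its genotypes did not overlap either, but mutants 4 and 5 lay only just above wild type 3 (log2 change 0.51 ± 0.21 SE, edgeR adjusted p = 0.388).

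Ube2z, an E2 charged by the E1 enzyme UBA6, had 63.5%, 65.1% and 63.4% in wild type and 76.7%, 73.4%, 76.9%, 64.1% and 65.8% in mutants. Mutants 4 and 5 lay in or next to the wild-type range (log2 change 0.51 ± 0.26 SE, edgeR adjusted p = 0.413). Ube2d3, the close relative of Ube2d2a, had 20.1%, 20% and 37.1% in wild type and 41.1%, 39.1%, 27.6%, 39.7% and 17.3% in mutants. Wild type 3 was among the high libraries and mutant 5 was the lowest of all 8, and the log2 change of 0.52 ± 0.44 (SE, edgeR adjusted p = 0.562) was close to its error. Ube2v2, which pairs with UBE2N to build lysine 63 chains, averaged 24.3% ± 8.84 in wild type and 36.6% ± 7.86 in mutants (SD, log2 change 0.89 ± 0.38 SE, edgeR adjusted p = 0.388).

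Ube2e3 averaged 1.11% ± 0.992 and 2.38% ± 0.816 (SD, log2 change 1.19 ± 0.52 SE, edgeR adjusted p = 0.388). The highest log2 change of the 83 genes was that of the cell-cycle E2 Ube2c, 1.69 ± 0.69 (SE, edgeR adjusted p = 0.388), a gene with a mean of only 37.0 reads per library. Values toward the proximal site that missed an unadjusted p of 0.05 were those of Ube2a, of the RAD6 pair of histone H2B enzymes (36.7% ± 2.04 and 29% ± 5.30, SD), and Ube2h (83.7% ± 5.85 and 76.4% ± 7.85). Ube2f, an E2 for NEDD8, had 50.2% and 44.0% as means (log2 change -0.36 ± 0.23 SE, edgeR adjusted p = 0.459). The other RAD6 gene, Ube2b, had 64.1% ± 5.86 and 70.9% ± 3.33, in the opposite direction.

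Among the USP genes, Usp15 was the one whose genotypes did not overlap toward the proximal site. Its distal share was 74.5%, 74.3% and 75.9% in wild type and 63.5%, 60.3%, 71.6%, 68.7% and 70.1% in mutants. The wild types lay close together, and mutant 2 was the lowest and mutant 3 the nearest to them. The means were 74.9% ± 0.848 and 66.8% ± 4.75 (SD), a log2 change of -0.55 ± 0.24 (SE, edgeR adjusted p = 0.388), for sites 6729 bases apart.

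Usp1, which acts with UAF1 on DNA repair proteins, had 89.3%, 91.0% and 90.3% in wild type and 94.9%, 94.2%, 92.5%, 97.4% and 92.0% in mutants. All mutants were above all wild types, with wild type 2 and mutant 5 the closest (log2 change 0.84 ± 0.36 SE, edgeR adjusted p = 0.388). Usp12, another UAF1 partner, averaged 97.1% ± 1.6 and 98.7% ± 0.561 (SD, log2 change 1.09 ± 0.49 SE, edgeR adjusted p = 0.391). In Usp13 the genotypes did not overlap, but the means differed little, 81.4% ± 0.627 and 83.1% ± 0.871 (SD, log2 change 0.17 ± 0.17 SE, edgeR adjusted p = 0.628).

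Usp7, which acts on p53 and MDM2, had 15.2%, 10.6% and 26.1% in wild type and 33.8%, 32.1%, 24.5%, 37.8% and 19.6% in mutants. Wild type 3 lay above mutants 3 and 5, so the genotypes overlapped (log2 change 1.06 ± 0.40 SE, edgeR adjusted p = 0.388). Its proximal reads averaged 62.4 ± 6.12 CPM in the wild types against 64.8 ± 2.12 in the mutants, with distal reads at 13.6 ± 8.08 and 27.8 ± 8.74 CPM (SD). Usp42 had 91.7%, 89.6% and 95.8% in wild type and 98.5%, 98.5%, 98.0%, 96.6% and 93.7% in mutants, with mutant 5 among the wild types (log2 change 1.5 ± 0.52 SE, edgeR adjusted p = 0.388). Usp6nl, the Rab GTPase-activating gene, averaged 99.3% ± 0.402 and 98.6% ± 0.509 (SD, log2 change -1.22 ± 0.52 SE, edgeR adjusted p = 0.388), on 3 to 13 proximal reads per library.

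By distance between the sites, the median log2 change was 0.39 over the 15 genes with sites at most 100 bases apart, 0.30 over 24 genes from 100 to 500 bases, 0.27 over 31 genes from 500 to 2000 bases and 0.17 over 13 genes beyond that. In all pairs the same classes had 0.18, 0.10, 0.08 and 0.10.

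The second comparison asked whether mutants ended more or fewer transcripts in an upstream exon, which can change the carboxyl end of the protein. edgeR called 0 of 63 genes (0% of all 6001 pairs) and DESeq2 0 of 63 (0.0833% of all pairs), and limma called 0 of 63. At unadjusted p under 0.05 there were 11 genes (13.9% of all pairs), 6 toward the last exon (10.3%) and 5 toward the upstream exon (3.6%). The genotypes did not overlap in 1 gene, Ube2d3 (5.88% of all pairs), toward the upstream exon (1.65%), and in 0 toward the last exon (4.23%). Leaving out 1 library moved the 11 to 7 (wild type 1), 2 (wild type 2), 17 (wild type 3), 6 (mutant 1), 4 (mutant 2), 7 (mutant 3), 6 (mutant 4) or 16 (mutant 5). The share of all pairs at that p moved too, from 6.97% without wild type 2 to 22.9% without mutant 5. edgeR then called 1 gene without mutant 5 (Ube2d3, among 243 of all pairs) and 3 without wild type 3 (Ube2d3, Ube2v2 and Usp21, among 145).

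Ube2d3 had last-exon shares of 99.93%, 99.96% and 99.87% in wild type and 99.77%, 99.72%, 99.77%, 99.70% and 99.83% in mutants. All mutants lay below all wild types, yet the upstream exon held only 5 to 32 reads per library. In CPM, upstream reads averaged 0.864 ± 0.450 in wild type and 2.20 ± 0.581 in mutants (SD). The log2 change of the ratio was -1.58 ± 0.36 (SE, edgeR adjusted p = 0.287, unadjusted p = 0.000758).

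Psmd1 was the proteasome gene with a large upstream share that had an unadjusted p under 0.05. Its last-exon share was 17.9%, 16.6% and 27.5% in wild type and 33.3%, 30.5%, 28.4%, 31.0% and 22.5% in mutants. Wild type 3 lay between mutant 5 and the other mutants (log2 change 0.68 ± 0.28 SE, edgeR adjusted p = 0.316). Psmb7, the trypsin-like beta subunit, averaged 95.7% ± 1.8 and 92.9% ± 1.71 (SD, log2 change -0.79 ± 0.32 SE, edgeR adjusted p = 0.306), and its upstream reads 11.9 ± 5.92 and 30.3 ± 10.8 CPM. Psmd13, of the 19S lid, averaged 99.7% ± 0.264 and 99.3% ± 0.429 (SD, log2 change -1.47 ± 0.66 SE, edgeR adjusted p = 0.343).

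Of the USP genes, 23 of 31 had a log2 change above 0, toward the last exon (62.2% of all pairs), a median log2 change of 0.35 beside 0.17 over all 6001 pairs, and 0.23 without wild type 1. The medians of Psm genes (0.03, above 0 in 13 of 22, 59.1%) and Ube2 genes (0.10, 6 of 10, 60%), whose shares above 0 lay below that of all pairs, turned or moved with single libraries: the Psm median was -0.08 without wild type 2 and 0.15 without wild type 1, and the Ube2 median 0.04 without mutant 2 and 0.18 without wild type 2. Usp19, whose reads end mainly upstream, had last-exon shares of 1.13%, 0.548% and 2.03% in wild type and 3.13%, 2.64%, 2.15%, 3.47% and 1.45% in mutants (edgeR adjusted p = 0.306, log2 change 1.14 ± 0.43 SE). Mutant 5 was the mutant that lay among the wild types.

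With an unadjusted p above 0.05, Psmd4, a ubiquitin receptor of the 19S cap, had a log2 change toward the last exon of 0.52 ± 0.30 (SE, edgeR adjusted p = 0.435), Ube2k, an E2 of lysine 48 chains, 0.56 ± 0.33 (edgeR adjusted p = 0.452) and Ube2o 0.52 ± 0.28 (edgeR adjusted p = 0.411). Usp11 (log2 change 0.70) and Usp34 (0.55) were also toward the last exon at unadjusted p under 0.05. Usp38 averaged 87.3% ± 5.24 and 94.7% ± 2.74 (SD, log2 change 1.40 ± 0.50 SE, edgeR adjusted p = 0.306), and Usp21, a nuclear histone H2A protease, 80.8% ± 9.29 and 89.8% ± 3.79 (log2 change 0.99 ± 0.43 SE, edgeR adjusted p = 0.337). Toward the upstream exon were Usp14, the protease that binds the proteasome, at 99.7% ± 0.0986 and 99.4% ± 0.208 (log2 change -1.12 ± 0.46 SE, edgeR adjusted p = 0.308), and Ube2v2 at 96.5% ± 2.62 and 93.9% ± 1.07 (log2 change -0.98 ± 0.41 SE, edgeR adjusted p = 0.319). The endosomal gene Usp8 had the widest spread in wild type of the 63 genes, 40.0%, 21.5% and 67.3% in wild type and 82.4%, 69.5%, 60.9%, 77.8% and 36.5% in mutants, with wild type 3 among the mutants and mutant 5 among the wild types (log2 change 1.44 ± 0.70 SE, edgeR adjusted p = 0.371).

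The third question was the level of each gene, the sum of both sites of a pair in log2 CPM with TMM scaling over the table. In the table of last-exon site pairs edgeR called 0 of 83 genes (0% of all 7876) and DESeq2 0 of 83 (0.33% of all), and limma called 0 of 83. At unadjusted p under 0.05 there were 9 genes (14.4% of all), 3 higher (7.31%) and 6 lower (7.07%) in mutants. The genotypes did not overlap in 4 genes (4.76% of all), 2 higher (2.45%) and 2 lower (2.31%). Leaving out 1 wild type moved the 9 to 3 (wild type 1), 8 (wild type 2) or 26 (wild type 3). Leaving out 1 mutant moved it to 5 (mutant 1, 2 or 4 in turn), 7 (mutant 3) or 24 (mutant 5). The share of all genes at that p ranged from 4.3% without wild type 1 to 32.9% without wild type 3. Without mutant 5 edgeR called 2 genes, Usp3 and Usp6nl, among 70 of all.

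In the table of upstream and last exons edgeR called 0 of 63 genes (0% of all 6001), as did DESeq2 (0 of 63, and 0% of all) and limma (0 of 63). The 12 genes at unadjusted p under 0.05 (15% of all) were 5 higher (7.6%) and 7 lower (7.45%) in mutants, and the genotypes did not overlap in 2 (4.78% of all), 1 higher (2.28%) and 1 lower (2.5%). Leaving out 1 wild type moved the 12 to 1 (wild type 1), 6 (wild type 2) or 24 (wild type 3). Leaving out 1 mutant moved it to 4 (mutant 1, 2 or 4 in turn), 9 (mutant 3) or 20 (mutant 5). The share of all genes at that p ranged from 5.35% (wild type 1) to 32.7% (wild type 3). edgeR called Usp3 without mutant 5, among 71 of all.

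No proteasome gene passed the test, and the median log2 change of the class lay below that of all genes. The median log2 change in level was -0.21 over 24 Psm genes in the first table and -0.21 over 22 in the second, beside 0.01 over all genes of each, and 15 of 24 and 16 of 22 lay below 0. Without wild type 1 the medians were -0.11 and -0.10, and without wild type 3 the second was -0.32. Counting the distal site alone, the median of the 24 was 0.03, and counting the proximal site alone -0.18. In each library of the first table, the median level of the 24 genes relative to their wild-type means was 0.13, -0.06 and -0.13 log2 in wild type 1 to 3 and -0.24, -0.24, -0.13, -0.23 and -0.06 in mutant 1 to 5. Mutants 3 and 5 lay within the wild-type range, and mutant 5, whose cerebellar marker sums were also within the wild-type range, was the highest mutant. The part of the cerebellar markers in this was not tested. The medians of Ube2 genes were -0.09 and 0.12 (0.05 in the first table without wild type 1 and 0.05 in the second without wild type 2) and those of Usp genes 0.06 and 0.05 (0.02 in the first without mutant 5, 0.14 and 0.13 in the second without wild type 2 or 3).

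**Figure D4:**
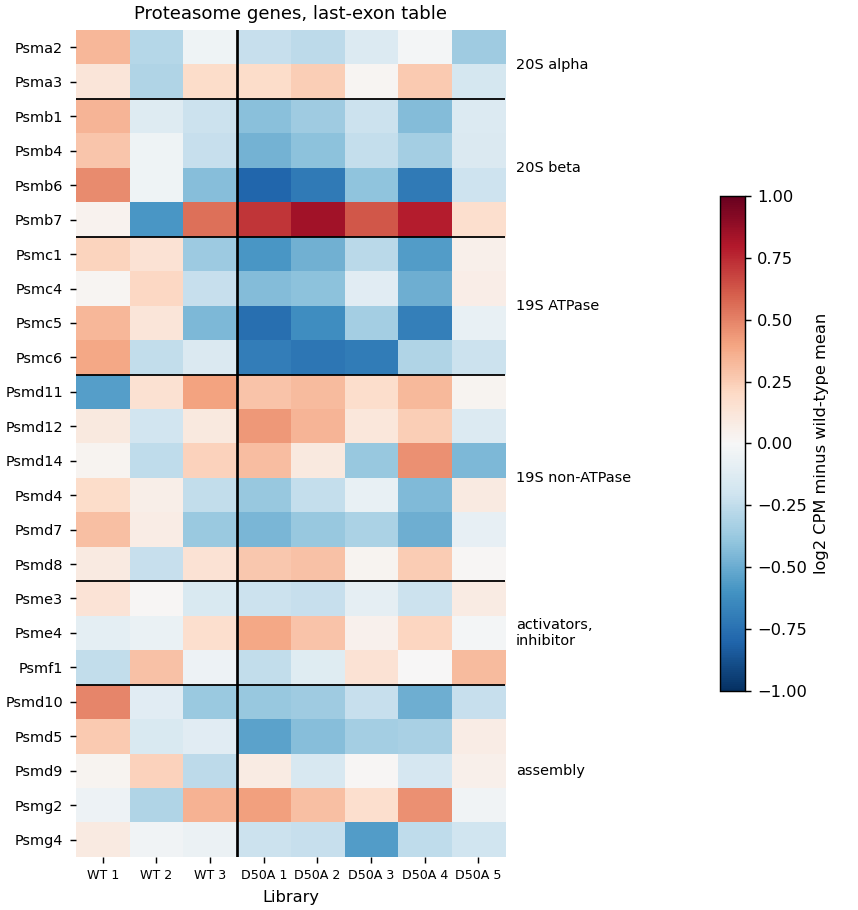
Level of the 24 Psm genes of the last-exon table in each library, as log2 CPM minus the gene's wild-type mean, grouped by role. The 4 ATPases of the 19S cap and the beta subunits other than Psmb7 are blue (lower) in mutants 1, 2 and 4, and Psmb7 is red (higher) in all mutants and in wild type 3. Mutant 5 is pale in most rows, but blue in Psma2 and Psmd14 and red in Psmf1.

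By role, the 19S ATPases were below 0 in both tables, 4 of 4 in the first (median -0.44) and 3 of 3 in the second (-0.37). Of all genes, 3872 of 7876 and 2964 of 6001 were below 0. Psmc1 and Psmc5 are in both tables, which share reads. In Psmc1, Psmc3, Psmc4 and Psmc5 wild type 3 lay below mutant 5. The beta ring had a median of -0.33 over 4 genes in the first table, with Psmb7 the 1 gene above 0. In the second table it was 0.36 over 3 genes, with Psmb2 and Psmb7 above 0 and Psmb5 below. The assembly chaperones had a median of -0.29 with 4 of 5 below 0 in the first table and -0.09 for the 1 gene in the second. Among these chaperones Psmg4 had 4.43, 4.30 and 4.28 log2 CPM in wild type and 4.12, 4.11, 3.77, 4.08 and 4.13 in mutants, without overlap (edgeR adjusted p = 0.345, log2 change -0.29 ± 0.13 SE). The 19S subunits that are not ATPases had medians of 0.10 and -0.07, and the activators with the inhibitor 0.01 and -0.15. Of the alpha ring genes, 1 of 2 were below 0 in the first table (median -0.06) and 3 of 4 in the second (-0.26). Other genes of high level were Psmd4 in the first table (log2 change -0.21 ± 0.16 SE, edgeR adjusted p = 0.471) and the 19S ATPase Psmc3 in the second (-0.29 ± 0.15, edgeR adjusted p = 0.352). The assembly chaperone Psmg2 was named only as a gene above 0 in the first table. Its log2 change was 0.25 ± 0.17 (SE, edgeR unadjusted p = 0.188, adjusted p = 0.441).

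Psmb6, the caspase-like catalytic subunit, had levels of 10, 9.48 and 9.10 log2 CPM in wild type and 8.73, 8.82, 9.13, 8.82 and 9.32 in mutants. Wild type 3 lay below mutants 3 and 5, so the genotypes overlapped. The means were 9.53 ± 0.45 and 8.96 ± 0.25 (SD), a log2 change of -0.59 ± 0.21 (SE, edgeR adjusted p = 0.345). Psmc5, a 19S ATPase, had 9.27, 9.06 and 8.49 in wild type and 8.19, 8.32, 8.60, 8.25 and 8.86 in mutants, again with wild type 3 among the mutants (log2 change -0.51 ± 0.21 SE, edgeR adjusted p = 0.345).

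Psmc6, the ATPase whose distal share is given above, had levels of 7.85, 7.21 and 7.32 log2 CPM in wild type and 6.77, 6.74, 6.76, 7.16 and 7.25 in mutants. Mutants 1 to 3 were the lowest, as they were the highest in distal share, and mutant 5 lay between the wild types (log2 change -0.53 ± 0.19 SE, edgeR adjusted p = 0.345). Psmb4 had a log2 change of -0.33 ± 0.14 (SE, edgeR adjusted p = 0.345). In the second table Psma6 (-0.49 ± 0.18), Psma7 (-0.33 ± 0.14), Psmd7 (-0.37 ± 0.16) and Psmc3ip (-0.70 ± 0.25; log2 change ± SE) were also at unadjusted p under 0.05.

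A pair of 20S genes had higher values in mutants, which did not pass the test. Psma5, an alpha subunit, had 4.43, 3.42 and 5 log2 CPM in wild type and 5.74, 5.85, 5.33, 5.79 and 4.43 in mutants of the second table. Mutants 1 to 4 were above all wild types and mutant 5 between wild types 1 and 3 (log2 change 1.11 ± 0.38 SE, edgeR adjusted p = 0.327). Psmb7 had 7.56, 6.94 and 8.08 in wild type and 8.24, 8.37, 8.15, 8.31 and 7.7 in mutants of the first table (edgeR adjusted p = 0.345, log2 change 0.57 ± 0.24 SE). Mutant 5 lay below wild type 3, and the other mutants above all wild types.

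Proteasome subunit genes are known targets of NFE2L1, a transcription factor that binds antioxidant response elements. The core of this element, TGACNNNGC on either strand, was searched in the promoter windows of RefSeq on GRCm38.p6, from 250 bases before to 50 after each start, in which 82 of the 103 genes had an entry. It was found in 6 of 30 Psm genes (Psmb5, Psmb6, Psmc6, Psmd12, Psmd9 and Psme4), 6 of 19 Ube2 genes and 8 of 33 Usp genes. These are 20%, 31.6% and 24.2%, beside 14% of 27025 genes. A CCAAT box, on either strand, was in 10 of 30, 4 of 19 and 8 of 33, beside 41.1%. Of the Psm genes with an unadjusted p under 0.05 in a level test, Psmb6 and Psmc6 held the element, and Psma5, Psma6, Psma7, Psmb4, Psmc3ip and Psmc5 had no match in their windows; Psmb7 and Psmd7 have no entry. Both promoters with a match are shown, with the element in capitals. Lower levels were not particular to these genes, as Psma6, Psma7, Psmb4, Psmc3ip and Psmc5 were lower too. A match is a description and not a site of binding. The window of Psmb6 is chr11:70525107-70525406 and that of Psmc6 chr14:45329574-45329873, both on the plus strand.
Psmb6: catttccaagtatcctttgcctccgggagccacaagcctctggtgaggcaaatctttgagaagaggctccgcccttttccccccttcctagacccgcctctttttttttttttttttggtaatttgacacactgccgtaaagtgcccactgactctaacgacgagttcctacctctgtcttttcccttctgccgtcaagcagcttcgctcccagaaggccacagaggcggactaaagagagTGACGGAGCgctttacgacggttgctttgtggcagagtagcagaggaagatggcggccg
Psmc6: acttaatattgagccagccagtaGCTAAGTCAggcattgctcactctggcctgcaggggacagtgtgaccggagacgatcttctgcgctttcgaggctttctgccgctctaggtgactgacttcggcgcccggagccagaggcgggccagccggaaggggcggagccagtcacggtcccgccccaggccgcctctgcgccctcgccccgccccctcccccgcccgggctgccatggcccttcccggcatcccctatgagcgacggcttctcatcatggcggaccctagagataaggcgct

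In Psmb6 the element begins 9 bases before the start, and in Psmc6 it lies on the opposite strand, 227 bases before it. The poly(A) sites themselves are given in the deposited table as positions with no chromosome or strand, so no sequence around them is shown.

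Among the E2 genes, Ube2c, the E2 of the anaphase-promoting complex, had 1.45, 0.83 and 1.14 log2 CPM in wild type and 1.58, 1.95, 2.13, 2.15 and 1.6 in mutants, without overlap (log2 change 0.82 ± 0.25 SE, edgeR adjusted p = 0.345), from a mean of 37.0 reads per library. Ube2d2a, Ube2d3 and Ube2e3 were below 0 (log2 changes of -0.36 ± 0.17, -0.18 ± 0.14 and -0.13 ± 0.17, SE), and 4 of 5 E2s of lysine 48 chains and quality control were above it (median 0.18). Among the 10 Ube2 genes of the second table, 0 had an unadjusted p under 0.05 (15% of all genes there). Ube2k had log2 changes of 0.38 ± 0.22 and 0.25 ± 0.19 (SE, edgeR adjusted p = 0.370 and 0.462) in the first and second tables.

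**Figure D5:**
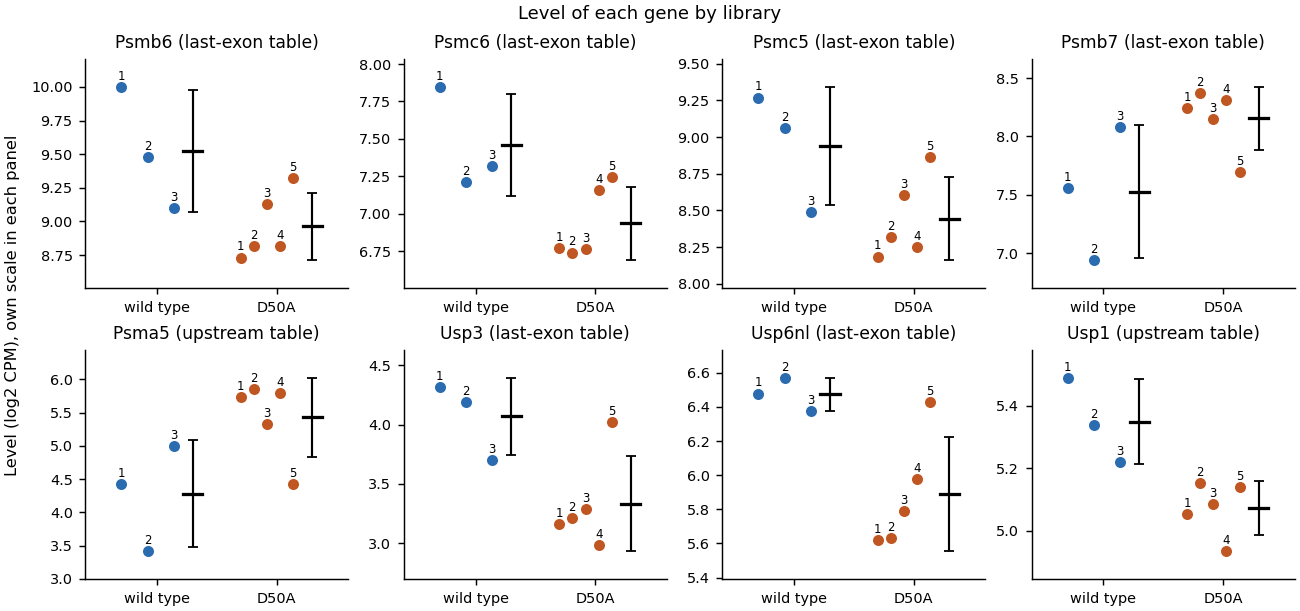
Level in log2 CPM of 8 genes in every library, with library numbers beside the points and the mean ± SD of each genotype at the right of its points; each panel has its own scale, which does not start at 0. In Usp3 and Usp6nl mutants 1 to 4 lie below the wild types and mutant 5 within their range, in Psma5 mutants 1 to 4 lie above them, and in Usp1 the genotypes do not overlap.

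Usp3, which removes ubiquitin from histones H2A and H2B, had 4.32, 4.19 and 3.70 log2 CPM in wild type and 3.16, 3.21, 3.29, 2.98 and 4.02 in mutants of the first table. Mutants 1 to 4 were below all wild types and mutant 5 within their range, the same division of the libraries as in the cerebellar markers above (log2 change -0.72 ± 0.25 SE, edgeR adjusted p = 0.345). Without mutant 5 the log2 change was -0.94 (edgeR adjusted p = 0.0499), and in the second table it went from -0.75 ± 0.24 (SE, edgeR adjusted p = 0.327) to -0.97 (edgeR adjusted p = 0.0250). By site, the means were 7.94 ± 1.6 and 4.96 ± 2.16 CPM at the proximal and 8.96 ± 2.10 and 5.30 ± 1.30 CPM at the distal site (SD).

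Usp6nl had 6.48, 6.57 and 6.37 log2 CPM in wild type and 5.62, 5.63, 5.79, 5.98 and 6.43 in mutants. Mutant 5 again lay within the wild-type range and the other mutants below it (log2 change -0.55 ± 0.19 SE, edgeR adjusted p = 0.345; without mutant 5 it was -0.71, edgeR adjusted p = 0.0422). The cerebellar markers divide the libraries in the same way, and their part in these 2 genes was not tested. Usp1 in the second table had 5.49, 5.34 and 5.22 in wild type and 5.05, 5.15, 5.09, 4.94 and 5.14 in mutants, without overlap (log2 change -0.28 ± 0.12 SE, edgeR adjusted p = 0.328).

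Usp38 had a log2 change in level of 0.78 ± 0.32 (SE) in the first table and 0.66 ± 0.26 in the second (edgeR adjusted p = 0.345 and 0.328), Usp21 0.63 ± 0.28 (edgeR adjusted p = 0.330) and Usp54 0.56 ± 0.25 (edgeR adjusted p = 0.331), the last 2 in the second table. Usp48 had -0.17 ± 0.11 (edgeR adjusted p = 0.401) in the second. Usp33, which acts on receptors and the centrosome, did not overlap in either table, although the change was small, 0.10 ± 0.11 and 0.17 ± 0.10 (log2 change ± SE, edgeR adjusted p = 0.615 and 0.382). The group of Usp5, Usp13 and Usp14 were all above 0 in the first table (median 0.25) and Usp5 and Usp14 in the second (0.22).

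Other genes of the pathway, from lists of ubiquitin and E1 genes, other deubiquitinases, and proteasome partners and shuttles, were counted alongside. In the distal-site comparison edgeR and DESeq2 called 0 of 6, 0 of 21 and 0 of 16 measured genes, with 1, 1 and 5 at unadjusted p under 0.05 by edgeR (12.7% of all pairs), the first and the last 5 toward the distal site and the second toward the proximal site. The extremes were Ubqln2, a shuttle that carries ubiquitinated proteins to the proteasome, at a log2 change of 1.96, and Cyld, which trims lysine 63 chains, at -1.05. In the comparison of exons both tools called 0 of 4, 0 of 17 and 0 of 11, and 1, 0 and 2 had an unadjusted p under 0.05 (13.9% of all pairs), all toward the last exon. For level in the first table they called 0 of the 6, 21 and 16 genes, with 1 higher and 1 lower, 2 lower, and 1 higher at unadjusted p under 0.05 (14.4% of all genes). The medians of level in that table were -0.04, -0.03 and 0.05.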

How the data were processed

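The deposited files hold raw read counts per site, which the authors made from QuantSeq 3′ mRNA-Seq REV libraries of total brain. FastQC 0.11.3, STAR 2.5, HTSeq 0.6.0 and the build mm9 are named, with no role, in the submitters' processing notes, while the choice of sites is not described there. The counts ranged from 9.62 to 17.5 M per library in the first table, which bounds the precision of low sites.

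Tests were fitted on each whole table in R 4.3.3 with edgeR 4.0.16 (robust quasi-likelihood F-test, Benjamini-Hochberg adjusted p under 0.05): for site use, each library as a block with the interaction of site and genotype, and for level, both sites summed, after TMM scaling. Pairs needed a mean of 20 reads per library and 10 reads at each site. Standard errors (SE) were the size of a log2 change divided by the root of its F statistic, and log2 CPM used a prior count of 2. DESeq2 1.42.0, limma 3.58.1, other filters and scalings, single sites and leaving out each library were alternatives; the proximal or upstream site alone was chosen after seeing the data. The script was tested on simulated counts.

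Genes were named by rule: up to 3 per class and direction with the smallest unadjusted p, and those without overlap between genotypes. Both of these needed a mean of at least 50 reads per library. The rule also named the 3 of the highest level per class and Ube2d3, without that cut. Psma7, Psmd8, Psmd12, Psmd14, Ube2b, Ube2c, Ube2z, Usp8 and Usp34, and the genes that end mainly upstream, were named after their values were seen. 1 gene named by this rule is not reported here. The members, role lists and pathway lists were chosen with earlier results of these data known.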

Additional observations from a re-analysis of the deposited data

Results flagged for a closer look

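Among the 5 mutants, 1 library stood far from the other 4 in 6 of 88 gene values examined, by Dixon's criterion (a gap over range above 0.71), which chance passes in about 1 of 20 groups. Mutant 5 was the distant library in 3 of them. Its distal share of Ube2v2 was 23.1% (37.8% to 43.7% in the others), its last-exon share of Ube2r2, an E2 that builds lysine 48 chains, was 99.5% (98.9% to 99.1%), and its Usp3 level in the second table was 5.13 log2 CPM (4.17 to 4.40).

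Mutant 3 was the distant one in 2 levels, those of the proteasome assembly chaperone Psmg4, 3.77 log2 CPM (4.08 to 4.13 in the others), and of Ube2w in the second table, 5.58 log2 CPM (5.80 to 5.85). Mutant 4 was the distant one in the distal share of Psmd7, 93.0% (97.2% to 98.3%).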

How the results depend on the processing

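For the counts of genes called and the class medians, 240 of 256 alternatives kept the result. The counts were 0 in each main fit. A median was taken as kept if it moved by less than the pooled SD of its library medians, a wide margin. For distal site use of Psm genes this SD was 0.225, so the fall from 0.41 to 0.22 without wild type 1 counted as kept. Leaving out 1 library at a time moved the number of genes called by edgeR between 0 and 3 for exon use, 0 and 2 for level in the first table and 0 and 1 for level in the second; it stayed 0 for the distal site. The Psm medians then ranged from -0.078 to 0.15 for exon use and from -0.28 to -0.11 for level in the first table, the Ube2 median there from -0.14 to 0.054, and the Usp median in the second table from 0.031 to 0.14. With the distal site alone the level medians of the first table were 0.025 (Psm) and 0.092 (Ube2), and with library totals the Usp median was 0.12. With the upstream site alone, those of the second table were -0.0012 (Psm), -0.0018 (Ube2) and -0.14 (Usp).

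For single genes, 1311 of 1333 alternatives kept direction and side of the threshold. The genes that turned sign were Usp11 (0.20 and 0.19 in the first and second tables, turned without wild type 1), Usp20 (-0.015 and -0.029; 0.044 with library totals and 0.0018 with limma in the first table, 0.017 with library totals in the second) and Usp22 (-0.056; 0.0066 with library totals). Leaving out libraries gave ranges of -0.022 to 0.43 and -0.024 to 0.43 for Usp11 in the first and second tables, -0.19 to 0.15 in both for Usp20, and -0.15 to 0.066 for Usp22. The cause was not tested. No paired analysis was possible because the replicate numbers were given in accession order and pair no animals. The 3 wild-type libraries and the low counts of minor sites, from 1 read, limit what could be detected.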

Other observations

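Several genes shared a division of the libraries that is not the genotype. In the 19S subunit Psmd8 the distal share was 35.5%, 39.7% and 38.1% in wild type and 48%, 45.8%, 44.5%, 35.1% and 36.2% in mutants, so that mutants 1 to 3 lay above the wild types and mutants 4 and 5 at or below their range. The shares of Psma2, Psmc6, Ube2d2a and Ube2z placed mutants 4 and 5 in or next to the wild-type range too.

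A different division held in Usp47, in which the distal share was 4.30%, 6.06% and 13.7% in wild type and 17.6%, 15.1%, 8.55%, 18.3% and 5.60% in mutants. Usp37 had 20%, 30.9% and 63.4% in wild type and 75.6%, 61.0%, 51.5%, 65.7% and 28.2% in mutants. Usp14 had 21.6%, 20% and 35% in wild type and 37.4%, 37.8%, 27.1%, 36.3% and 17.4% in mutants, and Ube2g1, an E2 of endoplasmic reticulum quality control, 68.3%, 59.2% and 81.9% against 85.8%, 89.9%, 75.4%, 85.5% and 74.2%. In all 4 of these genes wild type 3 lay above mutants 3 and 5, and mutants 1, 2 and 4 lay above wild types 1 and 2. These genes were picked for this order after their values were seen, so no test is given. The neuron marker sums had the same order. In the first table so did the sums of endothelium and pericyte markers and of cortex and hippocampus markers. The part of these markers in these genes was not tested.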
